A study of Mus musculus with 8 samples.

Results

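The genes of fatty acid and triglyceride synthesis were followed in RNA of 4 Bmal1+/+ and 4 Bmal1-/- samples from mice, which the study compared to find genes that differ in the tumor host without this clock gene. The set holds 40 genes of lipogenesis and lipid storage, taken by symbol from the 55487 genes of the count table, and all 40 were found. Of these, 37 passed the filter on low counts and were tested. The RNA was labelled as the stromal vascular fraction of subcutaneous MC38 tumors, a mouse colorectal cancer line that carried green fluorescent protein, from which the GFP-positive cancer cells had been removed by flow sorting. The Bmal1-/- hosts are described in the study as carrying a germline deletion of the clock gene Bmal1, whereas the implanted cancer cells did not carry the deletion, and no other allele or agent was named for either group. The age and sex of the mice and the time of day of collection are not given in the sources used here. Each library was labelled as a separate replicate of its group of 4, and it is not stated whether each came from a separate mouse.

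Fatty acid synthesis turns surplus carbon into stored fat. Citrate leaves the mitochondrion and is cleaved to acetyl-CoA, which is carboxylated to malonyl-CoA and built into palmitate with NADPH as the reductant. Palmitate is then desaturated and elongated, joined to glycerol as triglyceride, and held in droplets under a coat of perilipin and CIDE proteins. The liver and adipose tissue are the main sites of this pathway, and SREBP-1c, encoded by Srebf1, is its best known transcriptional activator in liver.

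Lipogenic transcripts were lower in the libraries labelled Bmal1-/-. Of the 37 tested genes, 21 (56.8%) were lower and 4 (10.8%) were higher at an adjusted p below 0.05, where 16.2% of all 14353 tested genes were lower and 14.9% were higher. Among the 21, Pnpla3 and Mogat1 passed the filter on low counts only through the Bmal1+/+ group. With at least 10 counts in every library, 19 of 35 genes were lower. The 21 lower genes ran from acetyl-CoA supply (Acly, Acss2) through chain building (Acaca, Acacb, Fasn) to desaturation (Scd1, Fads1, Fads2), elongation (Elovl6) and triglyceride assembly (Gpam, Dgat2). The 4 higher genes were the elongase Elovl3, the acyltransferases Agpat2 and Agpat3, and the phosphatase Lpin3. The median log2 fold change was -0.93 over the 37 genes and 0.02 over all tested genes. The test was the quasi-likelihood test of edgeR, with p adjusted by Benjamini-Hochberg over all tested genes. By the study's criterion, an absolute log2 fold change above 1 with an unadjusted p below 0.05, 18 of the 37 were lower and 1 was higher, beside 8.71% and 5.41% of all tested genes. For each of the 25 called genes the libraries of the groups did not overlap, which was also true of 16.8% of all tested genes in the lower direction and 16.7% in the higher.

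**Figure D1:**
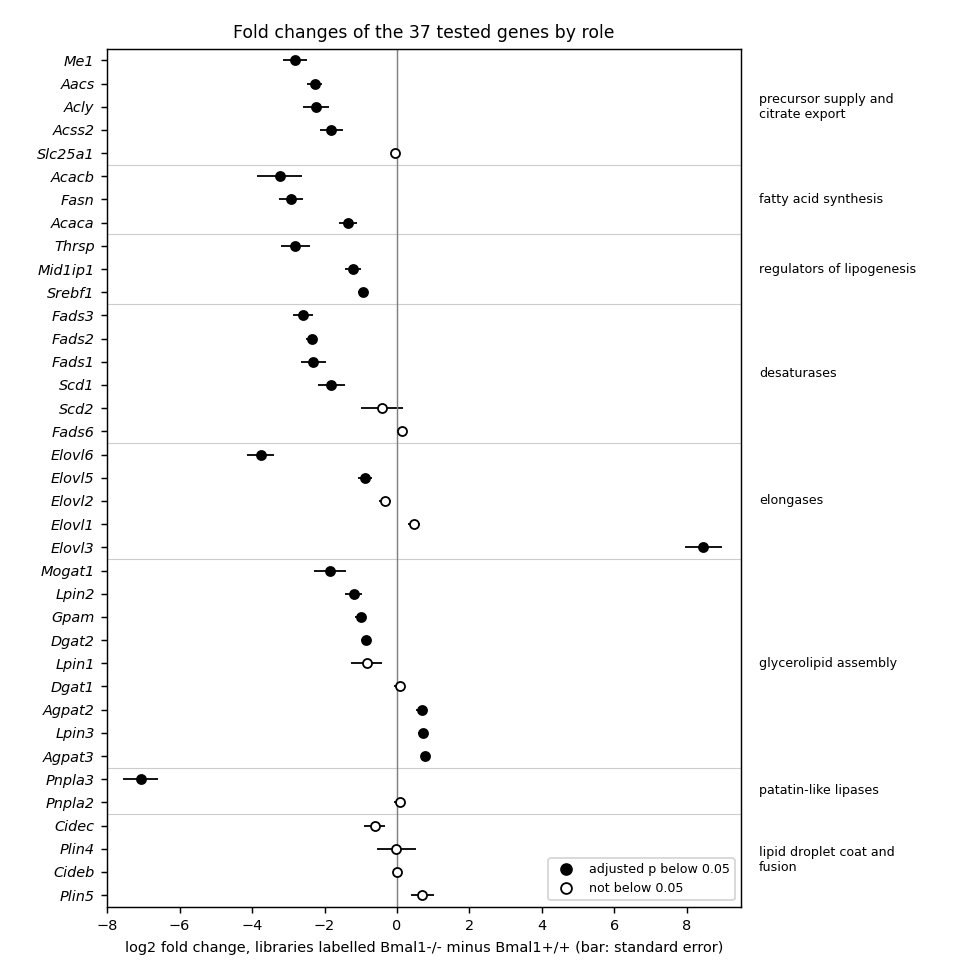
Log2 fold change (x axis, libraries labelled Bmal1-/- minus Bmal1+/+) of the 37 tested genes, grouped by role, with the standard error as a bar. Filled points had an adjusted p below 0.05, with Pnpla3 lowest at -7.08 and Elovl3 highest at 8.46. Pnpla3 and Mogat1 passed the filter on low counts only through the Bmal1+/+ group.

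Several facts of the whole series bear on these values. Library totals ran from 14783346 to 18449143 counts in Bmal1+/+ and from 14054825 to 15624815 in the libraries labelled Bmal1-/-. Bmal1 itself (Arntl) was at a mean of 1.55 CPM (SD 0.814, n = 4) in Bmal1+/+ and of 32.6 CPM (SD 2.00, n = 4) in those labelled Bmal1-/-, against the label, so these are called by their label throughout, and every direction below is drawn from the labels. The 4 Bmal1+/+ libraries held Xist at 844 CPM or more and no count of 4 Y-linked genes, and the 4 libraries labelled Bmal1-/- held at most 0.749 CPM of Xist and at least 1785 counts of the Y-linked genes, so that the sex of the RNA and the genotype label cannot be told apart in any comparison here. The share of counts on mitochondrial genes was 6.48 to 8.63% in Bmal1+/+ and 4.22 to 5.35% in the other group. Hepatocyte markers were abundant in every library, which goes against the label of tumor stromal vascular fraction: the 12 markers summed to 107292 to 119556 CPM in Bmal1+/+ and to 67712 to 80776 CPM in those labelled Bmal1-/-. In Bmal1+/+ most of that sum was albumin (Alb), at 64318 to 71872 CPM against 12744 to 18830 CPM. Of the 12, 1 was lower and 3 were higher. Fibroblast markers summed to between 145 and 229 CPM against 105 and 111 CPM, and 6 of 9 tested were lower. Endothelial markers summed to 180 to 220 CPM against 122 to 159 CPM, and 4 of 8 were lower. Macrophage markers summed to between 499 and 602 CPM against 228 and 411 CPM, and 8 of 9 were lower. Leukocyte markers summed to between 23.8 and 28.2 CPM against 8.18 and 17.2 CPM, and 1 of 5 tested was lower. Epithelial and colon tumor markers summed to between 193 and 238 CPM against 235 and 375 CPM. Of 5 tested 2 were lower, Epcam and Krt19, and 1 was higher, Cdh1. Most of the sum was Krt8 and Krt18, and neither was called. Krt8 was at 123 to 155 CPM against 138 to 216 CPM, and Krt18 at 60.0 to 72.4 CPM against 69.1 to 139 CPM. Of 8 adipocyte markers, 6, among them Adipoq, Lep and Plin1, stayed under 1 CPM in every library, Ucp1 was at 0 in all, and the 8 summed to between 15.8 and 23.4 CPM against 21.8 and 28.3 CPM. Of the 2 adipocyte markers tested, Fabp4 was higher and Lipe was not called. Acute-phase transcripts summed to between 10737 and 13784 CPM against 15464 and 76046 CPM, the highest being replicate 4 of the libraries labelled Bmal1-/-. Of the 13 genes, 3 were higher, the fibrinogen genes Fga, Fgb and Fgg, and 0 were lower. The list did not move as one: Lcn2 was at 20.9 to 34.1 CPM in Bmal1+/+. In those labelled Bmal1-/- it was at 9.55, 4.64, 2.56 and 1073 CPM in order of replicate. The part of these differences in the lipogenic results was not tested, and in bulk RNA fewer cells of a type and less RNA per cell cannot be told apart.

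**Figure D2:**
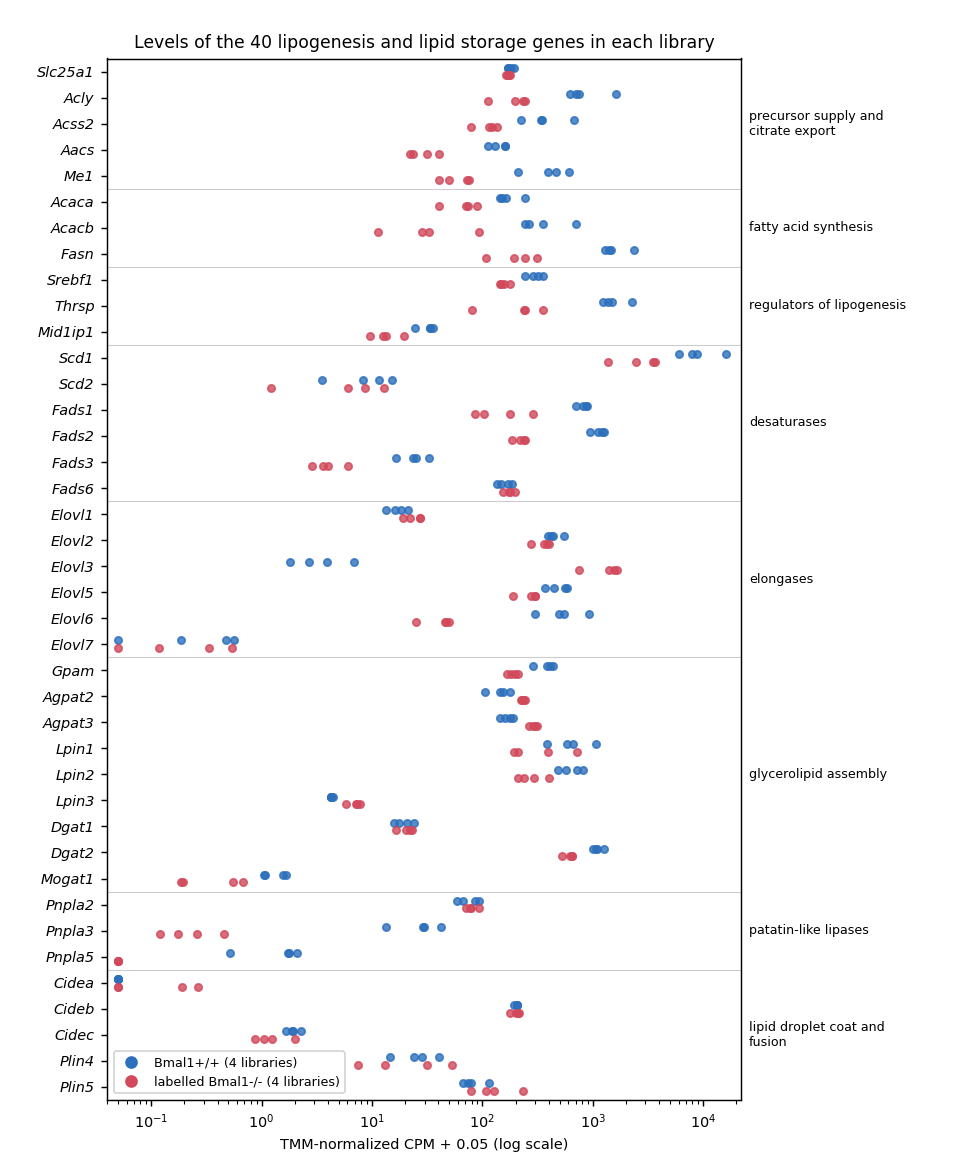
TMM-normalized CPM (counts scaled to the TMM-adjusted library total over tested genes, plus 0.05, log scale) of all 40 genes, 1 point per library. Bmal1+/+ is in blue and the libraries labelled Bmal1-/- are in red. Most synthesis genes show 2 separate clusters of 4 points with the blue points to the right, and Elovl3 shows the opposite order.

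Promoter sequence was read for the genes whose windows the RefSeq table holds. The BMAL1-CLOCK dimer binds the E-box CACGTG, and the factor NF-Y, a partner of SREBP at lipogenic promoters, binds CCAAT. Windows from 250 bases before to 50 bases after the RefSeq start (GRCm38.p6) were matched for 33 of the 40 genes and searched on both strands. Scd1, Scd2, Fads1, Elovl3, Dgat1, Dgat2 and Cidea had no window and were not searched. CACGTG stood in at least 1 window of 5 of the 33 (15.2%), namely Slc25a1, Elovl5, Lpin2, Lpin3 and Pnpla5, and in those of 8.09% of all 27025 genes in the table. Of all 32851 windows, 7.15% held it. CCAAT stood in 18 of the 33 (54.5%) and in 41.06% of all genes. The sterol-element-like TCACNCCAC stood in 0 of the 33 and in 1.44% of all genes. The letters TTATGTAA, also searched, stood in 0 of the 33 and in 1.11% of all genes. These matches describe letters, not bound sites. The windows below belong to the 3 called genes with an E-box and to Fasn, the central synthase, and the capitals mark the E-box, or for Fasn the CCAAT box on either strand.
Elovl5 (chr9:77917115-77917414, plus strand): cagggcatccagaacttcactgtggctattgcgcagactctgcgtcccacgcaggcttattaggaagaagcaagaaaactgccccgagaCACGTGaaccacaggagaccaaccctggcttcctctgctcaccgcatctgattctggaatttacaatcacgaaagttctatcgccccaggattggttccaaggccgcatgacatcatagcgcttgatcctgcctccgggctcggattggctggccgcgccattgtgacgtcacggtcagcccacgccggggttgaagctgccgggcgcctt
Lpin2 (chr17:71183282-71183581, plus strand): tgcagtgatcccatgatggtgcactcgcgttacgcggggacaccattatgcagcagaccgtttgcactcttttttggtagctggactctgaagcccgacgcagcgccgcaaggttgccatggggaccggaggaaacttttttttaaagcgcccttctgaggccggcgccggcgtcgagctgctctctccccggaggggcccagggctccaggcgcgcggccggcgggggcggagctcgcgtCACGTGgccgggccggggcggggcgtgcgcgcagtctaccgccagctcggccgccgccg
Lpin3 (chr2:160880420-160880719, plus strand): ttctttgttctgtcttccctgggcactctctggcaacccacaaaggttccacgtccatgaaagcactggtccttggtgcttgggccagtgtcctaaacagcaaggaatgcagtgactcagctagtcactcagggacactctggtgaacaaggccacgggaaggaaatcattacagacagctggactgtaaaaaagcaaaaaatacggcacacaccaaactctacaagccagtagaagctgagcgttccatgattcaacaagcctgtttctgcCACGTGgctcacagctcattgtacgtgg
Fasn (chr11:120824498-120824797, minus strand, written 5′ to 3′ along the gene): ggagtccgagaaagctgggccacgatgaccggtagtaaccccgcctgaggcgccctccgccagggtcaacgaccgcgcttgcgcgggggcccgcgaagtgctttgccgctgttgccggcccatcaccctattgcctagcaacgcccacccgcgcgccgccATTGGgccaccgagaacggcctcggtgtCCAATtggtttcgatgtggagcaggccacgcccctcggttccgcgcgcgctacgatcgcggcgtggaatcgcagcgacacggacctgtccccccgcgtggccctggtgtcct
The E-box begins 161 bases before the start in Elovl5, 9 bases before it in Lpin2 and 22 bases after it in Lpin3. Of these, Elovl5 and Lpin2 were lower and Lpin3 was higher in the libraries labelled Bmal1-/-, whereas Slc25a1 was not called and Pnpla5 was not tested. In Fasn the CCAAT boxes begin 90 and 62 bases before the start.

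Levels are given below as TMM-normalized CPM (counts scaled to the library total) for replicates 1, 2, 3 and 4 of each group in that order. The counts by role that follow stand beside 16.2% lower and 14.9% higher among all tested genes. The enzymes that supply acetyl-CoA and NADPH were lower in 4 of 5 cases. Acly, ATP citrate lyase, which makes cytosolic acetyl-CoA from citrate, was at 755, 1623, 625 and 703 CPM in Bmal1+/+ and 233, 245, 113 and 198 CPM in those labelled Bmal1-/- (log2 fold change -2.23, SE 0.35, edgeR adjusted p = 0.00138). Acss2, which makes acetyl-CoA from acetate, was at 349, 677, 221 and 336 CPM in Bmal1+/+ and 123, 116, 78.4 and 135 CPM in those labelled Bmal1-/- (log2 fold change -1.81, SE 0.32, edgeR adjusted p = 0.00254). In both genes replicate 2 stood highest of the Bmal1+/+ libraries and replicate 3 lowest of the others, and the groups did not overlap. Aacs, which activates acetoacetate for lipid synthesis, was at 162, 160, 131 and 113 CPM in Bmal1+/+ and 31.3, 40.03, 23.7 and 22.1 CPM in those labelled Bmal1-/- (log2 fold change -2.27, SE 0.21, edgeR adjusted p = 5.60e-05). Me1, the cytosolic malic enzyme and a source of NADPH, was at 389, 604, 208 and 467 CPM in Bmal1+/+ and 71.8, 76.2, 49.5 and 40.2 CPM in those labelled Bmal1-/- (log2 fold change -2.81, SE 0.33, edgeR adjusted p = 0.000257). Its lowest Bmal1+/+ library, replicate 3, was still above the highest of the other group. Slc25a1, the mitochondrial citrate carrier, was at 182, 192, 172 and 169 CPM in Bmal1+/+ and 175, 179, 164 and 166 CPM in those labelled Bmal1-/-, and it did not pass the test (log2 fold change -0.06, SE 0.09, edgeR adjusted p = 0.639). All 8 libraries lay between 164 and 192 CPM for this carrier, which stands upstream of Acly.

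Each of the 3 genes of the core synthesis step was lower. Acaca, the cytosolic acetyl-CoA carboxylase that makes malonyl-CoA for synthesis, was at 164, 243, 150 and 143 CPM in Bmal1+/+ and 70.6, 74.7, 40.8 and 89.3 CPM in those labelled Bmal1-/- (log2 fold change -1.35, SE 0.25, edgeR adjusted p = 0.00306). Acacb, the carboxylase at the mitochondrial surface whose malonyl-CoA restrains fatty acid oxidation, was at 356, 703, 265 and 241 CPM in Bmal1+/+ and 32.5, 28.3, 11.2 and 94.0 CPM in those labelled Bmal1-/- (log2 fold change -3.24, SE 0.62, edgeR adjusted p = 0.00368). The spread of Acacb among the libraries labelled Bmal1-/- was wide, with replicate 4 far above replicate 3, yet none reached the Bmal1+/+ range. Fasn, fatty acid synthase (chromosome 11, 120805846 to 120824547, minus strand), was at 1474, 2362, 1300 and 1399 CPM in Bmal1+/+ and 243, 192, 108 and 314 CPM in those labelled Bmal1-/- (log2 fold change -2.93, SE 0.34, edgeR adjusted p = 0.000216). The lowest Bmal1+/+ library, at 1300 CPM, was well above the highest of the other group, at 314 CPM. Per length, Acacb was above Acaca by a ratio of 2.61 to 4.50 in FPKM in the Bmal1+/+ libraries, and the ratio was 0.428 to 1.64 in the libraries labelled Bmal1-/-, so the order of the carboxylases turned over in 3 of those 4.

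All 3 regulators of lipogenesis in the set were lower, and 13 related regulators are counted further below. Srebf1, which encodes SREBP-1, was at 284, 244, 321 and 351 CPM in Bmal1+/+ and 157, 177, 149 and 145 CPM in those labelled Bmal1-/- (log2 fold change -0.93, SE 0.14, edgeR adjusted p = 0.000909). Its libraries were close within each group. Thrsp, a small lipogenic protein that partners MID1IP1, was at 1386, 2280, 1249 and 1498 CPM in Bmal1+/+ and 355, 241, 80.3 and 240 CPM in those labelled Bmal1-/- (log2 fold change -2.81, SE 0.40, edgeR adjusted p = 0.000853). Mid1ip1, an X-linked gene whose protein promotes polymerization of acetyl-CoA carboxylase, was at 24.5, 33.4, 33.5 and 35.7 CPM in Bmal1+/+ and 12.4, 9.49, 13.4 and 19.5 CPM in those labelled Bmal1-/- (log2 fold change -1.21, SE 0.21, edgeR adjusted p = 0.0023). The log2 fold change of Srebf1 was nearer to 0 than those of Acly, Fasn and Elovl6, and the difference between genes was not tested.

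Among the desaturases 4 of 6 were lower. Scd1, the stearoyl-CoA desaturase that makes oleate and palmitoleate, was at 7875, 15928, 6075 and 8880 CPM in Bmal1+/+ and 3663, 2477, 1361 and 3505 CPM in those labelled Bmal1-/- (log2 fold change -1.82, SE 0.38, edgeR adjusted p = 0.00559). By group mean it held the highest level of the 40 genes per length in both groups, with 1742 ± 745 FPKM (SD, n = 4) in Bmal1+/+ and 507 ± 196 FPKM (SD, n = 4) in the other group. In replicate 3 of the libraries labelled Bmal1-/-, Elovl3 stood above it, with 31.6% of the summed FPKM of the set against 16.0% for Scd1. Scd2, its paralog 87.6 kb away on chromosome 19, was at 14.99, 8.26, 11.6 and 3.51 CPM in Bmal1+/+ and 12.9, 1.18, 6.05 and 8.61 CPM in those labelled Bmal1-/- and did not pass the test (log2 fold change -0.41, SE 0.59, edgeR adjusted p = 0.629). Scd paralogs may share reads, and the treatment of reads that match several genes is not given in the sources used here. Their values are uncertain to that extent. Fads1, a desaturase of polyunsaturated fatty acids, was at 866, 890, 698 and 807 CPM in Bmal1+/+ and 179, 103, 85.9 and 289 CPM in those labelled Bmal1-/- (log2 fold change -2.31, SE 0.35, edgeR adjusted p = 0.00111). Fads2, which acts before it in that route, was at 1200, 1261, 934 and 1104 CPM in Bmal1+/+ and 219, 244, 185 and 237 CPM in those labelled Bmal1-/- (log2 fold change -2.35, SE 0.15, edgeR adjusted p = 7.36e-06). Fads3, a sphingoid base desaturase, was at 23.5, 16.4, 25.0 and 33.0 CPM in Bmal1+/+ and 2.81, 3.53, 5.98 and 3.93 CPM in those labelled Bmal1-/- (log2 fold change -2.59, SE 0.27, edgeR adjusted p = 0.000126). The 3 Fads genes lie together on chromosome 19, with 2654 bases between Fads3 and Fads2 and 81.1 kb between Fads2 and Fads1, and all 3 were lower with no overlap of the groups. In FPKM, Fads2 exceeded Fads1 by a ratio of 3.19 to 3.37 in Bmal1+/+ and of 1.95 to 5.61 in the libraries labelled Bmal1-/-, where Fads1 varied more between libraries. Fads6, on chromosome 11, was at 170, 185, 148 and 135 CPM in Bmal1+/+ and 175, 178, 152 and 199 CPM in those labelled Bmal1-/- and did not pass the test (log2 fold change 0.14, SE 0.13, edgeR adjusted p = 0.449).

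The elongases held the highest fold change of the set. Elovl3 (chromosome 19, 46131897 to 46135694, plus strand), an elongase of saturated and monounsaturated very long chains, was at 2.65, 6.85, 1.75 and 3.90 CPM in Bmal1+/+ and 1654, 1388, 1568 and 748 CPM in those labelled Bmal1-/- (log2 fold change 8.46, SE 0.51, edgeR adjusted p = 5.33e-06). Even the lowest library labelled Bmal1-/-, replicate 4, stood at 748 CPM where the highest Bmal1+/+ library, replicate 2, stood at 6.85 CPM. Over the alternatives run its log2 fold change stayed between 8.23 and 9.09. Elovl3 shares 10 exon bases (0.506% of its exons) with the antisense gene Pitx3, which was at 0 in all 4 Bmal1+/+ libraries and at 13.6 to 60.7 CPM in the libraries labelled Bmal1-/-, and strand use in the counting is not stated. Elovl6, which elongates palmitate to stearate, was at 495, 926, 297 and 543 CPM in Bmal1+/+ and 45.6, 49.4, 24.8 and 46.3 CPM in those labelled Bmal1-/- (log2 fold change -3.77, SE 0.36, edgeR adjusted p = 8.13e-05). Elovl5, an elongase of polyunsaturated chains, was at 445, 582, 365 and 558 CPM in Bmal1+/+ and 274, 298, 189 and 300 CPM in those labelled Bmal1-/- (log2 fold change -0.88, SE 0.20, edgeR adjusted p = 0.00804). Within the family the balance shifted: the FPKM ratio of Elovl3 to Elovl6 was 0.0186 to 0.0256 in Bmal1+/+ and 56.0 to 219 in the libraries labelled Bmal1-/-, and that of Elovl6 to Elovl5 was 0.286 to 0.559 against 0.0460 to 0.0586. Elovl2, an elongase of long polyunsaturated chains, was at 396, 435, 420 and 550 CPM in Bmal1+/+ and 404, 387, 363 and 275 CPM in those labelled Bmal1-/- and did not pass the test (log2 fold change -0.33, SE 0.16, edgeR adjusted p = 0.138). Elovl1, which elongates very long saturated chains, was at 21.1, 18.4, 13.3 and 16.2 CPM in Bmal1+/+ and 27.0, 19.0, 22.2 and 27.3 CPM in those labelled Bmal1-/- and missed the threshold (log2 fold change 0.47, SE 0.17, edgeR adjusted p = 0.059). Without Bmal1+/+ replicate 1 or without replicate 2 of the libraries labelled Bmal1-/- it passed, with adjusted p = 0.0385 and adjusted p = 0.0376 by the same edgeR test, as it did with library size only (edgeR adjusted p = 0.0459). Elovl7 had at most 8 counts in any library and was not tested.

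**Figure D3:**
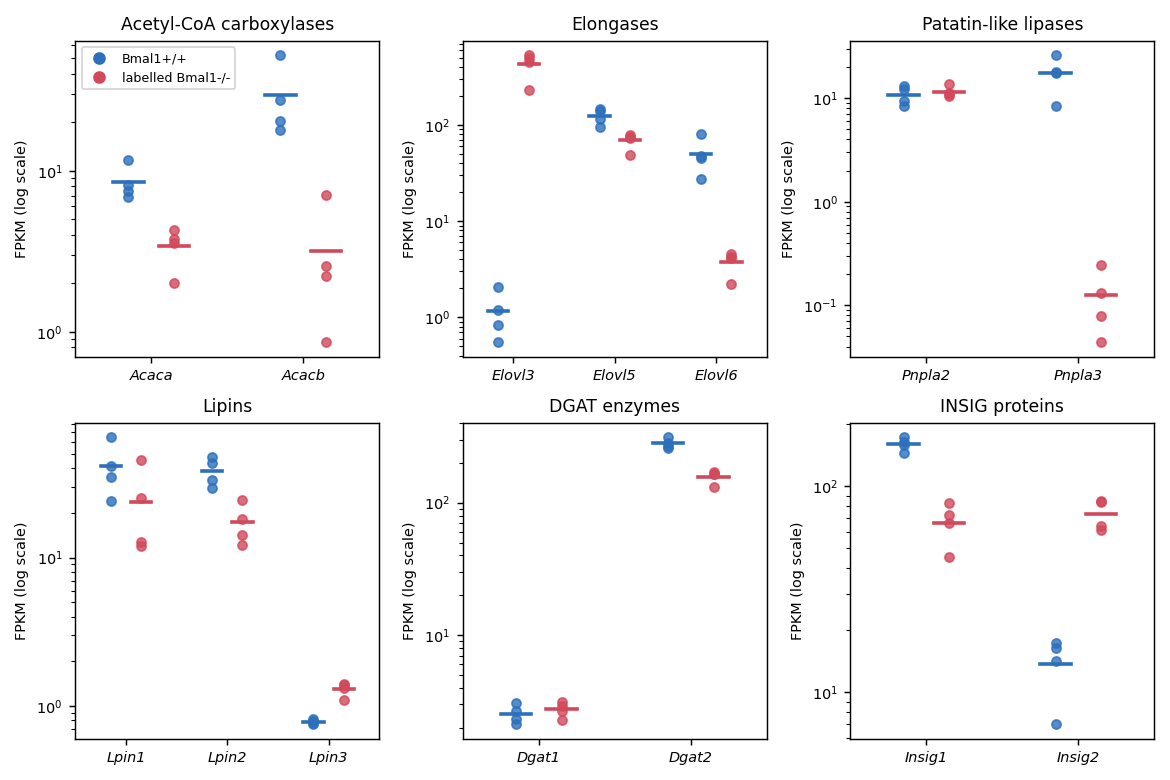
FPKM (log scale) of related genes in each library, with Bmal1+/+ in blue, the libraries labelled Bmal1-/- in red and a line at each group mean. Elovl3 and Elovl6 exchange their order between groups, as does Acacb with Acaca in 3 of 4 libraries labelled Bmal1-/-, while Pnpla2 and Dgat1 lie at like levels in both groups.

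The genes of glycerolipid assembly were mixed, with 4 of 9 (44.4%) lower and 3 (33.3%) higher, beside 16.2% and 14.9% of all tested genes. Gpam, the mitochondrial enzyme that begins acylation of glycerol phosphate, was at 383, 436, 289 and 408 CPM in Bmal1+/+ and 210, 197, 167 and 182 CPM in those labelled Bmal1-/- (log2 fold change -1.004, SE 0.15, edgeR adjusted p = 0.00097). Agpat2, which adds the second acyl chain, was higher at 178, 154, 106 and 145 CPM in Bmal1+/+ and 230, 225, 245 and 237 CPM in those labelled Bmal1-/- (log2 fold change 0.68, SE 0.15, edgeR adjusted p = 0.00736). Agpat3, of the same family, was at 161, 177, 191 and 146 CPM in Bmal1+/+ and 300, 265, 309 and 285 CPM in those labelled Bmal1-/- (log2 fold change 0.78, SE 0.12, edgeR adjusted p = 0.00107). Agpat2 shares 64 exon bases (3.00%) with the antisense gene Egfl7. The lipins remove phosphate from phosphatidate to give diacylglycerol. Lpin2 was at 487, 824, 719 and 577 CPM in Bmal1+/+ and 401, 296, 238 and 208 CPM in those labelled Bmal1-/- (log2 fold change -1.19, SE 0.23, edgeR adjusted p = 0.00436). Lpin3 was at 4.21, 4.16, 4.37 and 4.23 CPM in Bmal1+/+ and 7.24, 5.75, 7.12 and 7.73 CPM in those labelled Bmal1-/- (log2 fold change 0.71, SE 0.15, edgeR adjusted p = 0.00529). The Bmal1+/+ libraries were nearly level for Lpin3, which in FPKM was far below its relatives, at 0.782 ± 0.0295 (SD, n = 4), where Lpin1 was at 41.3 ± 17.1 FPKM (SD, n = 4) and Lpin2 at 38.4 ± 8.48 FPKM (SD, n = 4). Lpin1 was at 386, 1075, 660 and 582 CPM in Bmal1+/+ and 712, 396, 192 and 211 CPM in those labelled Bmal1-/- and did not pass the test (log2 fold change -0.84, SE 0.44, edgeR adjusted p = 0.175). Replicate 1 of the libraries labelled Bmal1-/- stood well above the others of its group, and without it the log2 fold change of Lpin1 was -1.34 (adjusted p = 0.0288 by edgeR). Without Bmal1+/+ replicate 2 it was -0.53 (adjusted p = 0.412 by edgeR), and without that library and replicate 4 of the other group it was -0.34 (adjusted p = 0.580 by edgeR). Dgat2, the main enzyme of the last step of triglyceride synthesis in liver, was at 1098, 1263, 1013 and 1076 CPM in Bmal1+/+ and 626, 646, 649 and 525 CPM in those labelled Bmal1-/- (log2 fold change -0.86, SE 0.13, edgeR adjusted p = 0.00114). Dgat1, the unrelated enzyme of the same step, was at 15.7, 23.9, 17.4 and 20.5 CPM in Bmal1+/+ and 22.9, 16.5, 21.9 and 20.5 CPM in those labelled Bmal1-/- and did not pass the test (log2 fold change 0.08, SE 0.16, edgeR adjusted p = 0.742). The FPKM ratio of Dgat2 to Dgat1 was 99.7 to 133 in Bmal1+/+ and 48.8 to 74.6 in the libraries labelled Bmal1-/-. Mogat1, a monoacylglycerol acyltransferase, was near the detection limit at 1.505, 1.02, 1.01 and 1.61 CPM in Bmal1+/+ and 0.4996, 0.623, 0.142 and 0.136 CPM in those labelled Bmal1-/- (log2 fold change -1.85, SE 0.45, edgeR adjusted p = 0.0124). It reached the filter's cutoff of 0.652 CPM in no library labelled Bmal1-/-, so its test was open only through the Bmal1+/+ group.

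Of the patatin-like lipases, Pnpla3 fell and Pnpla2 did not pass the test. Pnpla3 (chromosome 15, 84167837 to 84187236, plus strand), a lipid droplet protein whose human form carries a common risk allele for fatty liver, was at 41.8, 29.6, 13.4 and 29.0 CPM in Bmal1+/+ and 0.1249, 0.208, 0.0712 and 0.407 CPM in those labelled Bmal1-/- (log2 fold change -7.08, SE 0.49, edgeR adjusted p = 1.16e-05). Its counts were 694, 462, 200 and 520 in Bmal1+/+ and 2, 3, 1 and 6 in the libraries labelled Bmal1-/-. Pooled over libraries, the ratio of Bmal1+/+ to the other group per library total was 140 (95% exact binomial interval 79.7 to 271, counting error only). Like Mogat1, this gene passed the filter only through the Bmal1+/+ group, and its fitted log2 fold change, -7.64 to -6.83 over the alternatives run, depends on the prior count. Pnpla5, the neighboring gene 44.7 kb away, had 28, 32, 7 and 31 counts in Bmal1+/+ and 0 counts in each library labelled Bmal1-/-. It was not tested. Its Bmal1+/+ mean, 1.48 CPM, was 7.30 times a floor of 3 counts per library labelled Bmal1-/-, a mean of 0.203 CPM. The lowest Bmal1+/+ library, replicate 3, was at 0.470 CPM. Pnpla2, the lipase ATGL that begins triglyceride breakdown, was at 58.7, 93.6, 85.3 and 67.2 CPM in Bmal1+/+ and 92.4, 71.7, 78.7 and 77.5 CPM in those labelled Bmal1-/- (log2 fold change 0.07, SE 0.15, edgeR adjusted p = 0.754). The FPKM ratio of Pnpla3 to Pnpla2 was 0.681 to 3.08 in Bmal1+/+ and 0.00391 to 0.0227 in the libraries labelled Bmal1-/-.

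None of the 4 tested genes of droplet coat and fusion passed the edgeR test, where 1 of the 4, Plin5, had an unadjusted p below 0.05, and neither DESeq2 nor limma-voom called any. Plin5, the perilipin that links droplets to mitochondria, was at 67.1, 116, 74.0 and 78.8 CPM in Bmal1+/+ and 232, 128, 107 and 79.4 CPM in those labelled Bmal1-/- (log2 fold change 0.70, SE 0.31, edgeR adjusted p = 0.111). Its highest value was replicate 1 of the libraries labelled Bmal1-/-, and without replicate 4 of that group it passed with a log2 fold change of 0.89 (adjusted p = 0.0345 by edgeR). Leaving out replicate 1 in turn gave 0.32 (adjusted p = 0.306 by edgeR), and leaving out replicate 4 with Bmal1+/+ replicate 2 gave 1.07 (adjusted p = 0.0193 by edgeR). Plin4, its neighbor 1.8 kb away on chromosome 17, was at 14.6, 28.0, 40.1 and 23.8 CPM in Bmal1+/+ and 52.8, 31.6, 7.40 and 13.0 CPM in those labelled Bmal1-/- (log2 fold change -0.02, SE 0.53, edgeR adjusted p = 0.982). Cidec, which enlarges droplets by fusion, was at 1.87, 2.24, 1.61 and 1.84 CPM in Bmal1+/+ and 1.19, 1.94, 0.996 and 0.814 CPM in those labelled Bmal1-/- (log2 fold change -0.61, SE 0.29, edgeR adjusted p = 0.138). Without replicate 2 of the libraries labelled Bmal1-/- Cidec passed at a log2 fold change of -0.91 (adjusted p = 0.0384 by edgeR), and without replicate 4 and Bmal1+/+ replicate 2 it stood at -0.38 (adjusted p = 0.414 by edgeR). Cideb, the liver form of the family, was at 207, 204, 193 and 204 CPM in Bmal1+/+ and 202, 211, 213 and 178 CPM in those labelled Bmal1-/- (log2 fold change -0.01, SE 0.10, edgeR adjusted p = 0.958). Its exons share 76.3% of their bases with the antisense gene Nop9, at a mean of 26.4 and 35.1 CPM, so that reads of the pair cannot be told apart without strand. Cidea had at most 3 counts in any library.

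**Figure D4:**
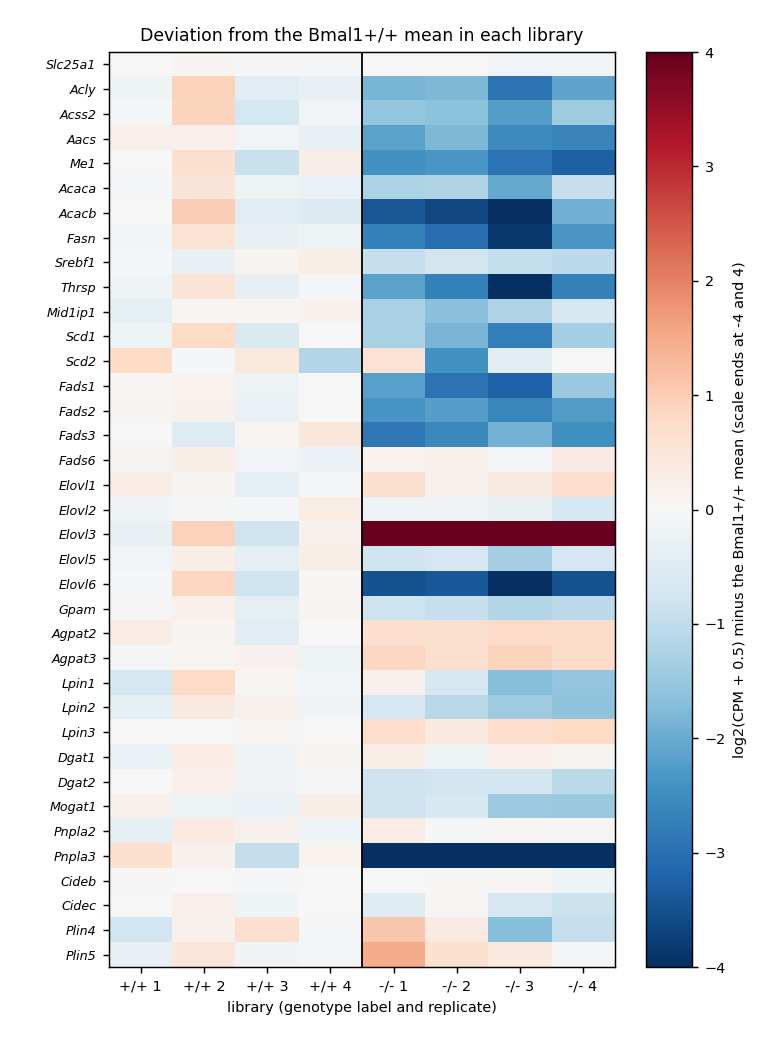
Difference of log2(CPM + 0.5) from the Bmal1+/+ mean for the 37 tested genes (rows, in order of role) in each of the 8 libraries (columns). Blue is lower and red is higher, the scale ends at -4 and 4, and Pnpla3 and Elovl3 lie beyond it in all libraries labelled Bmal1-/-, as do Acacb, Thrsp and Elovl6 in replicate 3.

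Some libraries stood at the edge of their group for many of these genes. Among the 21 lower genes, replicate 2 was the highest Bmal1+/+ library for 15 and replicate 3 the lowest for 14, and replicate 3 was the lowest of the libraries labelled Bmal1-/- for 13. Over all tested genes these shares were 23.1%, 25.2% and 29.6%. Summed over the 40 genes, the Bmal1+/+ libraries held 20144, 33814, 17071 and 21457 CPM and the libraries labelled Bmal1-/- held 11252, 9019, 7030 and 9130 CPM. Without Elovl3 the sums were 17069 to 33807 CPM against 5462 to 9598 CPM. The makeup of the sum differed as well. Scd1 gave 36.1 to 48.5% of the summed FPKM in Bmal1+/+ and 16.0 to 35.8% in the libraries labelled Bmal1-/-, Thrsp gave 13.9 to 15.2% against 1.93 to 5.83%, and Elovl3 gave 0.0178 to 0.0358% against 13.1 to 31.6%. In order of mean FPKM, Bmal1+/+ libraries ran from Scd1 to Thrsp (590 ± 160, SD, n = 4), Fads2 (310 ± 36.9) and Dgat2 (280 ± 23.1), and the spreads of Fads2 and Dgat2 overlapped. In the libraries labelled Bmal1-/- Elovl3 was next after Scd1 at 425 ± 135 FPKM (SD, n = 4), within the spread of Scd1, and Dgat2 (157 ± 17.6) and Cideb (104 ± 9.90) followed.

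Other genes of the pathway were counted in the same fit. Of 66 related genes in 6 lists, 61 were tested, with a median log2 fold change of -0.30. By edgeR 21 (34.4%) were lower and 4 (6.56%) higher, where 16.2% of all tested genes were lower and 14.9% higher. Among the 21, Gpat3 and Agpat4 passed the filter on low counts only through the Bmal1+/+ group. With at least 10 counts in every library, 20 of 59 related genes were lower. Among the 13 regulators of the SREBP, LXR and ChREBP routes, 2 (15.4%) were lower and 1 (7.69%) higher, shares at or under those of all tested genes. Insig1 and Insig2 encode endoplasmic reticulum proteins that retain the SREBP escort SCAP. Insig1 was at 564, 563, 593 and 512 CPM in Bmal1+/+ and 279, 223, 156 and 256 CPM in those labelled Bmal1-/- (log2 fold change -1.29, SE 0.18, edgeR adjusted p = 0.000621). Insig2 was at 107, 128, 52.5 and 134 CPM in Bmal1+/+ and 619, 453, 485 and 653 CPM in those labelled Bmal1-/- (log2 fold change 2.39, SE 0.28, edgeR adjusted p = 0.000247). The FPKM ratio of Insig2 to Insig1 was 0.0405 to 0.120 in Bmal1+/+ and 0.928 to 1.42 in the libraries labelled Bmal1-/-. Pparg, a nuclear receptor of fat storage, was lower, at 8.01, 9.22, 7.32 and 9.47 CPM in Bmal1+/+ and 3.12, 6.23, 4.41 and 6.24 CPM in those labelled Bmal1-/- (log2 fold change -0.77, SE 0.22, edgeR adjusted p = 0.0265). Scap, Mlxipl and Nr1h3, which encode the escort protein, ChREBP and LXR alpha, did not pass, with log2 fold changes of 0.24, -0.34 and -0.21.

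Of 7 other NADPH and pyruvate enzymes, 4 (57.1%) were lower by edgeR, and G6pdx, Pcx and Mdh1 were not called. Mdh1, with a log2 fold change of -0.41 and edgeR adjusted p = 0.0728, was called lower by DESeq2 (adjusted p = 0.0352). Pklr, liver pyruvate kinase, was at 590, 873, 411 and 539 CPM in Bmal1+/+ and 245, 251, 221 and 247 CPM in those labelled Bmal1-/- (log2 fold change -1.32, SE 0.21, edgeR adjusted p = 0.00138). Me2, Pgd and Idh1, which also yield reduced cofactors, had log2 fold changes of -1.17, -0.72 and -0.70. In the rest of the elongation and desaturation cycle 4 of 10 (40%) were lower and 1 (10%) was higher by edgeR. Scd3, another copy of Scd1, was at 5.06, 14.02, 5.64 and 5.68 CPM in Bmal1+/+ and 3.25, 2.22, 0.996 and 2.98 CPM in those labelled Bmal1-/- (log2 fold change -1.67, SE 0.42, edgeR adjusted p = 0.0144), and the dehydratases Hacd4, Hacd1 and Hacd3 had log2 fold changes of -1.21, -0.58 and -0.36. Hacd1 missed the threshold by limma-voom (adjusted p = 0.0574). Degs1, with a log2 fold change of -0.61 and edgeR adjusted p = 0.0609, was called lower by DESeq2 (adjusted p = 0.0336) and limma-voom (adjusted p = 0.0346). Among the other acyltransferases and acyl-CoA synthetases 6 of 12 (50%) were lower by edgeR. Lpcat3, with a log2 fold change of -0.36 and edgeR adjusted p = 0.0602, was called lower by DESeq2 (adjusted p = 0.0432). Gpat3, an endoplasmic reticulum enzyme of the same step as Gpam, was at 15.7, 14.98, 10.8 and 19.4 CPM in Bmal1+/+ and 0.562, 0.208, 0.640 and 0.271 CPM in those labelled Bmal1-/- (log2 fold change -5.15, SE 0.32, edgeR adjusted p = 5.60e-06). Like Mogat1 and Pnpla3 it reached the filter's cutoff in no library labelled Bmal1-/-, where it had at most 9 counts, so its test was open only through the Bmal1+/+ group. Agpat4, Acsl3 and Agpat1 had log2 fold changes of -1.33, -1.30 and -0.85, and Agpat4 reached the cutoff in 1 library labelled Bmal1-/-. The FPKM ratio of Gpam to Gpat4, which did not pass the test, was 0.982 to 1.31 against 0.523 to 0.799.

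Lipolysis and droplet genes outside the set were lower in 3 (23.1%) and higher in 2 (15.4%) of 13, near the 16.2% and 14.9% of all tested genes. Mgll, monoacylglycerol lipase, was at 299, 281, 297 and 313 CPM in Bmal1+/+ and 153, 155, 152 and 127 CPM in those labelled Bmal1-/- (log2 fold change -1.02, SE 0.11, edgeR adjusted p = 0.000133). Plin3, a widely expressed perilipin, was at 26.8, 30.4, 21.1 and 22.3 CPM in Bmal1+/+ and 45.3, 39.8, 38.8 and 39.7 CPM in those labelled Bmal1-/- (log2 fold change 0.70, SE 0.13, edgeR adjusted p = 0.00335). Fitm2 and Hsd17b13, of droplet formation and of the droplet surface, had log2 fold changes of -0.83 and -0.64. G0s2, with a log2 fold change of -1.02 and edgeR adjusted p = 0.0943, was called lower by DESeq2 (adjusted p = 0.0360). Of 6 genes of lipoprotein assembly 2 were lower. Apoa4, an apolipoprotein, was at 266, 278, 178 and 269 CPM in Bmal1+/+ and 109, 76.7, 155 and 87.4 CPM in those labelled Bmal1-/- (log2 fold change -1.21, SE 0.23, edgeR adjusted p = 0.00354), and Tm6sf2, which aids lipid loading of lipoproteins, had a log2 fold change of -1.12. Mttp and Apob, needed to build the particle, had log2 fold changes of -0.15 and 0.47 and did not pass by edgeR. Apob, with edgeR adjusted p = 0.0607, was called higher by DESeq2 (adjusted p = 0.0110) and limma-voom (adjusted p = 0.0346).

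**Figure D5:**
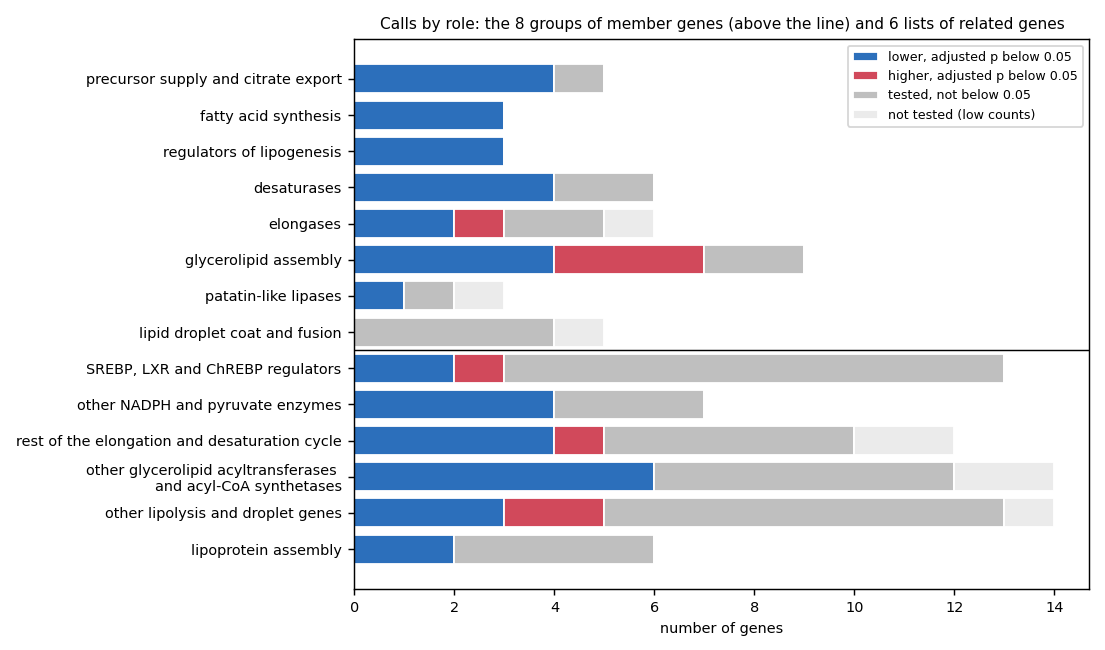
Number of genes (x axis) that were lower, higher, not called or not tested in the 8 role groups of the set (above the line) and in 6 lists of related genes (below it). All 3 genes of fatty acid synthesis and all 3 regulators of the set were lower, and none of the 4 tested droplet genes was called. Of the 13 related regulators below the line, 10 were not called.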

How the data were processed

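Messenger RNA from 4 Bmal1+/+ and 4 Bmal1-/- samples was grouped by the genotype labels, and replicate 4 of the latter is numbered by its description, not its title. Paired-end reads were mapped to GRCm38 by the authors, who deposited raw whole-number counts of fragments per gene. The study names HISAT and StringTie, and the submitters' processing notes list CASAVA 1.8 and TopHat2 2.0.6; strand use in counting is not given in the sources used here. The authors also deposited FPKM, used here to compare genes with each other; for 100.0% of 12597 genes with at least 10 counts in every library it equalled the count over the library total and 1 fixed length, within 1%.

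Symbols and coordinates came from GENCODE M21 (GRCm38), which matched 99.53% of identifiers. From the counts, TMM-normalized CPM and fold changes were computed with edgeR 4.0.16 in R 4.3.3 (filterByExpr, quasi-likelihood test, Benjamini-Hochberg adjustment), which kept 14353 genes. The study's own criterion (log2 fold change beyond 1 either way, unadjusted p under 0.05) is given beside it. Ratios of FPKM and sums are descriptions with no test. A count of 3 per library was the floor. No libraries duplicated one another (chi-square per degree of freedom of 18.0 or more), and p-values measure the spread between these libraries only. Alternatives were DESeq2 1.42.0, limma-voom (limma 3.58.1), upper-quartile or library-size scaling, other filters, the replicate number as a block and leaving out each library; leaving out 2 libraries at once was added after the data were seen. The fit was tested on simulated data. Figures were drawn with matplotlib 3.10.9 in Python 3.11.15.

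All 40 members were named by rule. Of each related list, up to 4 genes called by edgeR were named, with a mean CPM of 1 or more and the largest fold changes. Genes not called by edgeR are named for their role or for a call by another tool. The members and lists were chosen with earlier results of these data known.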

Additional observations from a re-analysis of the deposited data

Results flagged for a closer look

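For each of the 37 tested genes and each group, the highest and lowest library were compared with the others of the group, 74 groups in all, and 3 stood apart by Dixon's 95% criterion, which chance alone meets in about 5% of groups. Acly stood at 1623 CPM in Bmal1+/+ replicate 2, a gap to the next library of 0.87 of the range of its group. Fasn stood at 2362 CPM in the same library, with a gap of 0.836 of the range. Elovl6 stood at 24.8 CPM in replicate 3 of the libraries labelled Bmal1-/-, with a gap of 0.846 of the range. All 3 genes kept their call without the library concerned.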

How the results depend on the processing

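The 25 called genes of the set kept their direction and an adjusted p below 0.05 under each of 16 alternatives run, except that Mogat1 and Pnpla3 had no value with at least 10 counts in every library. The count of lower genes in the set was 21 by edgeR, DESeq2 and limma-voom and lay between 19 and 23 over the alternatives, and that of higher genes lay between 4 and 5. By the study's criterion, over all genes, the main edgeR fit used here gave 1250 lower and 776 higher. With no filter on low counts 1880 were lower and 1316 higher, and with at least 10 counts in every library 828 were lower. Without both Bmal1+/+ library 2 and library 4 labelled Bmal1-/-, 2 genes of the set were higher by this criterion, and with no filter 2 related genes were. The cause was not tested.

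Uncalled genes changed sign near 0 on the log2 scale. With 1 library left out, Dgat1 ran from -0.0133 to 0.189, Pnpla2 from -0.0355 to 0.184, Cideb from -0.0512 to 0.0480 and Plin4 from -0.615 to 0.274. With library size only, Cideb was at 0.0196 and Plin4 at 0.0201. Without the 2 libraries named above, Cideb was at 0.0342 and Plin4 at 0.2125.

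No litter, batch or day is stated to be shared by libraries of the same replicate number. Correlations of same-numbered deviations were -0.0921, 0.0609, 0.0363 and 0.0326, and those of differently numbered pairs ran from -0.0936 to 0.1208. These values cannot decide whether same-numbered libraries share such a factor. With the replicate number as a block, 21 genes of the set were lower and 4 higher, beside 2064 and 1809 of all genes. Depth limits Elovl7, Cidea, Pnpla5, Mogat1 and Pnpla3, which had 10 counts or fewer in every library of at least 1 group.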
